A study of Mus musculus with 6 samples.

Results

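The genes described here are 10 that control autophagy and the lysosome, taken by gene symbol from the FPKM table (fragments per kilobase, a level corrected for gene length and library size): Sqstm1, Map1lc3a, Map1lc3b, Gabarapl1, Becn1, Atg5, Atg7, Ulk1, Tfeb and Lamp2. Each symbol matched a single row of the 54532 genes in the table, and all 10 were among the 12944 genes that passed the filter of a mean of at least 0.5 FPKM. RNA came from the hearts of 6 mice that all received tamoxifen by intraperitoneal injection, 45 mg per kg per day for 5 days from 8 weeks of age, and that were labelled as sampled 12 weeks later, whereas the study's methods give the age of the mice at harvest as that number of weeks. The labels say heart and the methods ventricular tissue. The 3 control hearts (Ctrl) were from Mrps5 fl/fl mice, whose Mrps5 alleles can be deleted by Cre recombinase. The 3 conditional knockout hearts (cKO) were from Mrps5 fl/fl; MCM mice, which also carry MerCreMer, a tamoxifen-inducible Cre driven by the cardiomyocyte-specific αMHC promoter. MRPS5 belongs to the small subunit of mitochondrial ribosomes. No control carried MCM, so deletion of Mrps5 and presence of the transgene cannot be told apart, and the deletion is limited to cardiomyocytes while the libraries were made from whole tissue. Because of this, fewer cells of a type and less RNA per cell cannot be told apart for any gene below.

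Autophagy encloses cytoplasm, protein aggregates and worn organelles in a membrane that closes into an autophagosome and fuses with the lysosome, where the content is digested. The kinase ULK1 starts the process, a lipid kinase complex that contains BECN1 marks the site, and the enzymes ATG7 and ATG5 help to attach proteins of the ATG8 family (LC3 and GABARAP proteins) to the membrane, which then hold cargo through receptors such as SQSTM1. The transcription factor TFEB switches on many of the genes for autophagy and lysosomes, and LAMP2 is a main protein of the lysosomal membrane. In the heart, whose muscle cells are rarely replaced, loss of LAMP2 causes Danon disease, a cardiomyopathy with autophagic vacuoles.

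The libraries held 15989322 to 24875499 reads in genes, and the ranges of the groups overlapped. Values are listed in the order of replicates 1, 2 and 3 throughout. The deleted gene Mrps5 had 5.20, 6.45 and 6.33 FPKM in Ctrl, against 1.12, 1.23 and 1.31 FPKM in cKO, so the genotype labels held in each library. By sex-linked genes 1 library stood apart: cKO replicate 2 had Xist at 10.7 FPKM and the Y-linked gene Ddx3y at 0, whereas the other 5 hearts had Xist at 0.127 FPKM or less and Ddx3y at 12.7 FPKM or more. The study's reporting summary describes male mice only, and calls of the 10 genes that depend on this heart are given with and without it. By atrial markers, Ctrl replicate 1 and cKO replicate 3 stood apart, with Myl7, an atrial myosin light chain, at 679, 98.6 and 18.1 FPKM in Ctrl, against 71.8, 170 and 495 FPKM in cKO. The sums of 4 atrial genes (128 to 2050 FPKM in Ctrl, 575 to 1650 in cKO) and of 5 erythroid genes (880 to 2060 and 585 to 1590 FPKM) overlapped, with none called. The atrial sum includes Nppa, which the study also uses as a marker of hypertrophy, at 1060, 144 and 103 FPKM in Ctrl, against 469, 1130 and 938 FPKM in cKO. This sum is therefore no measure of atrial tissue alone. Without Ctrl replicate 1, and without cKO replicate 3, the 10 genes gave 1 higher and 3 lower, as with all hearts. Cardiomyocyte markers were present in all hearts, with a summed level of 14700 to 18600 FPKM over 8 genes in Ctrl and 8970 to 15800 FPKM in cKO, and 5 of the 8 were lower past the threshold. Of markers of other cells, 4 of 6 endothelial genes were lower (sums of 131 to 148 FPKM in Ctrl and 86.2 to 102 FPKM in cKO), and the sum of 5 smooth muscle and pericyte genes was 146 to 165 FPKM in Ctrl and 94.4 to 121 FPKM in cKO (1 higher and 1 lower of 4 tested). The summed macrophage and leukocyte markers overlapped (305 to 417 and 242 to 359 FPKM, with 1 of 7 tested lower), as did the fibroblast sums (154 to 178 and 152 to 180 FPKM, with 3 of 7 higher and 1 lower). No marker in these lists was at 0 in all hearts, and the part that cell composition has in the results below was not tested.

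Of the 10 genes, 4 differed between genotypes. Sqstm1 rose, and Ulk1, Map1lc3a and Map1lc3b fell, at an adjusted p under 0.05 (limma on log2(FPKM + 1), Benjamini-Hochberg over all 12944 genes, n = 3 hearts per group). The other 6 did not pass the threshold. Among all genes tested, 33.3% were called, 16.3% higher and 17% lower, so 4 of 10 is near the share found across the transcriptome. When libraries were scaled without mtDNA-encoded genes, 62% of all calls were higher, against 48.9% in the values given here, and the 10 genes still gave 1 higher and 3 lower. Values of the groups did not overlap for the same 4 genes and overlapped for the other 6. Of all genes tested, 51.2% had no overlap, 24.8% with cKO higher and 26.4% with cKO lower. The median log2 fold change of the 10 genes was -0.012, beside -0.016 over all genes. An exact permutation test of a single gene cannot go below p = 0.1 with 3 against 3 hearts, and these 4 genes reached that limit.

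**Figure D1:**
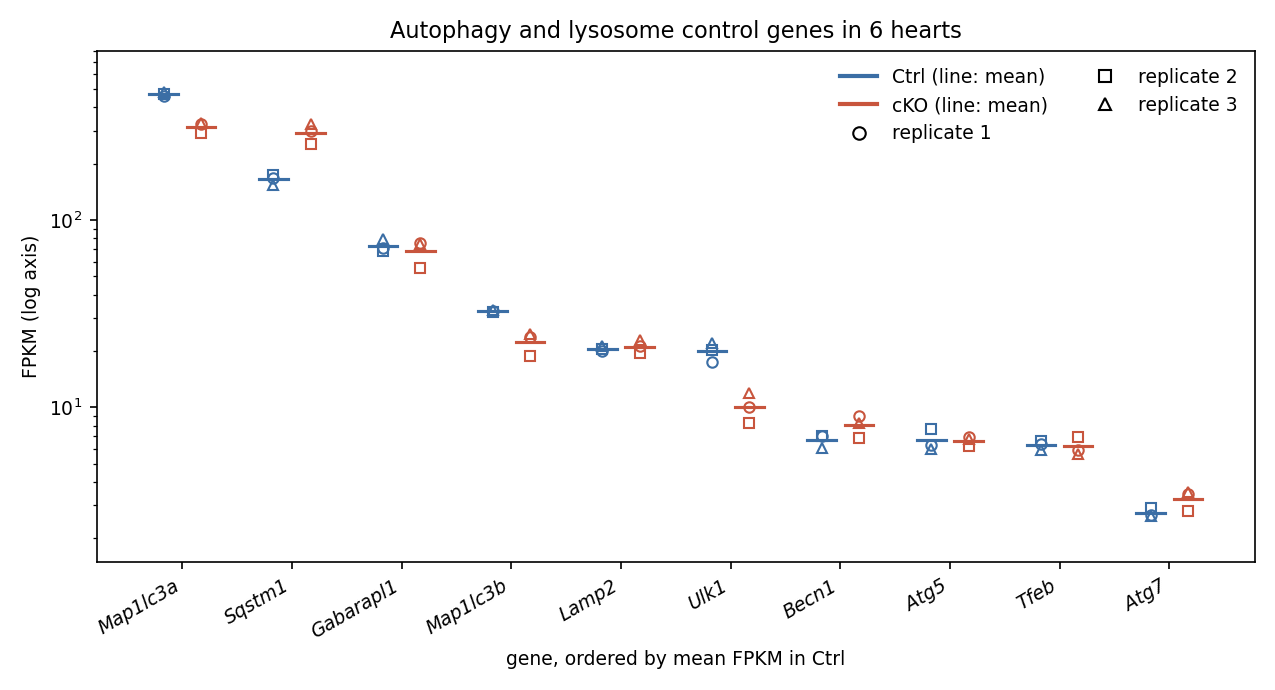
FPKM of each of the 10 genes (log axis) in every heart, with Ctrl in blue and cKO in red, the replicate number by symbol and the group mean as a line. Sqstm1 is higher in all 3 cKO hearts (255 to 325 FPKM) than in any Ctrl heart, and Map1lc3a, Map1lc3b and Ulk1 are lower in all 3.

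The 10 genes span a wide range of levels. In Ctrl hearts Map1lc3a was the highest, at a mean of 471 ± 11.3 FPKM (SD, n = 3), followed by Sqstm1 at 165 ± 9.53 and Gabarapl1 at 72.7 ± 5.73 FPKM. Map1lc3b came next at 32.7 ± 0.438 FPKM. Lamp2 and Ulk1 overlapped between 17.5 and 22.1 FPKM, as did Becn1, Atg5 and Tfeb between 5.9 and 7.67 FPKM, and Atg7 was the lowest at 2.73 ± 0.149 FPKM. In cKO hearts the distances between some of these genes differed. The ranges of Sqstm1 and Map1lc3a, well apart in Ctrl, overlapped at 255 to 325 and 290 to 328 FPKM, though Map1lc3a was the higher in each heart. Ulk1 was below Lamp2 in each heart, and its range of 8.3 to 11.9 FPKM overlapped that of Becn1 (6.9 to 9.01 FPKM). Map1lc3b and Lamp2, also apart in Ctrl, overlapped at 18.9 to 24.7 and 19.4 to 22.8 FPKM. FPKM divides by the joint length of all annotated exons of a gene, and this length exceeded the longest annotated transcript in 9 of the 10 genes. The ratio was largest for Lamp2 (9552 against 3604 bases) and Tfeb (5669 against 2342 bases), followed by Map1lc3b (7517 against 4138), Atg7 (6968 against 3895) and Becn1 (7065 against 4365). The order of levels, that of the lower genes in particular, therefore depends on the length used. Ratios of FPKM between the groups do not.

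SQSTM1, also called p62, binds ubiquitinated cargo and the ATG8 proteins, and is itself digested with the cargo. The values here are levels of RNA, and show neither SQSTM1 or LC3 protein nor the digestion of cargo. Sqstm1 (ENSMUSG00000015837, chromosome 11, 50199366 to 50210827, minus strand; 8 exons, here and below counted in the longest transcript annotated) had 167, 173 and 154 FPKM in Ctrl, against 297, 255 and 325 FPKM in cKO. The lowest cKO heart was above the highest Ctrl heart. The mean rose 1.77-fold, a log2 fold change of 0.82 (SE 0.108, 95% interval 0.56 to 1.07, limma adjusted p 0.00279). This change was larger in size than that of 92.8% of all genes tested. At least 10695 reads lay behind each value. Exons of Sqstm1 share 580 bases with exons of Mrnip on the other strand, and whether counting used strand is not given in the sources used here, but Mrnip was at 0.791 FPKM or less in every heart. The call held in all 14 alternatives.

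The cargo receptors did not move together. Of 8 receptor genes tested, 2 rose, 2 fell and 4 did not pass (median log2 fold change 0.00031). Tex264, a receptor for the endoplasmic reticulum, rose from 15.4 ± 0.625 to 26.1 ± 6.25 FPKM (limma adjusted p 0.0149). Nbr1, which resembles Sqstm1 in its domains and can act beside it, fell from 20.5 ± 1.12 to 15.7 ± 1.02 FPKM (limma adjusted p 0.0136). Without Ctrl replicate 3 the adjusted p was 0.0533 for Tex264 and 0.0526 for Nbr1. Calcoco1 fell from 34.1 ± 1.76 to 21.5 ± 2.58 FPKM (limma adjusted p 0.00427). The ratio of Sqstm1 to Nbr1 within a heart, which does not depend on scaling, was 8.69, 8.34 and 7.21 in Ctrl, against 19.9, 16.7 and 19.3 in cKO. The 2 receptors thus lay farther apart in each cKO heart than in any Ctrl heart. Both genes were already separate between the groups, in opposite directions, so this ratio had to separate and is no further test.

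ATG8 proteins are small ubiquitin-like proteins that are coupled to lipid in the autophagosome membrane; the LC3 branch holds LC3A and LC3B, and the GABARAP branch holds GABARAP, GABARAPL1 and GABARAPL2. Map1lc3a (ENSMUSG00000027602, chromosome 2, 155276297 to 155278073, plus strand, 4 exons) had 459, 472 and 482 FPKM in Ctrl, against 325, 290 and 328 FPKM in cKO. All cKO hearts were below all Ctrl hearts, and 66.7% of the mean was left (log2 fold change -0.58, SE 0.081, limma adjusted p 0.00315). A processed pseudogene annotated as a copy of Map1lc3a, AC087802.3, had 0 reads in every heart. Map1lc3b (ENSMUSG00000031812, chromosome 8, 121590361 to 121598760, plus strand, 3 exons), whose product LC3B is the usual marker protein of autophagosomes, had 32.5, 32.4 and 33.2 FPKM in Ctrl, against 23.7, 18.9 and 24.7 FPKM in cKO. Again the groups were separate, with 68.5% of the mean left (log2 fold change -0.53, SE 0.107, limma adjusted p 0.0106). Exons of Map1lc3b share 58 of their 7517 bases with those of Zcchc14 on the other strand. Zcchc14 fell as well, from 6.89 ± 0.372 to 4.57 ± 0.45 FPKM (log2 fold change -0.50, limma adjusted p 0.00592). The part of shared reads in the Map1lc3b values was not tested.

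Gabarapl1 (ENSMUSG00000030161, chromosome 6, 129533160 to 129542346, plus strand, 4 exons) had 70.7, 68.4 and 79.2 FPKM in Ctrl, against 75.4, 55.6 and 74.2 FPKM in cKO. The hearts overlapped, and only cKO replicate 2 lay below the Ctrl range. The log2 fold change was -0.098 (95% interval -0.41 to 0.22, limma adjusted p 0.601), and without cKO replicate 2 it was 0.042 (adjusted p 0.743). Of its exonic bases 570 are shared with 1700101I11Rik on the other strand, which stayed at or below 0.978 FPKM. The close relatives Gabarap (112 ± 5.09 FPKM in Ctrl, 130 ± 12.4 in cKO, limma adjusted p 0.126) and Gabarapl2 (25 ± 1.97 and 22.1 ± 1.1 FPKM, limma adjusted p 0.152) did not pass either, though their groups did not overlap. Without cKO replicate 2 Gabarap passed (log2 fold change 0.286, limma adjusted p 0.0404). Of the 5 genes of the family, 2 fell and none rose in all 6 hearts, with a median log2 fold change of -0.17.

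The makeup of the family differed between the groups. The summed level of the 5 genes was 702, 714 and 725 FPKM in Ctrl, against 587, 501 and 583 FPKM in cKO. Map1lc3a made up 66% ± 0.508 of this sum in Ctrl and 56.5% ± 1.24 in cKO, and Map1lc3b 4.59% ± 0.046 and 4.02% ± 0.241. Gabarap went from 15.7% ± 0.955 to 23.3% ± 0.534, Gabarapl1 from 10.2% ± 0.684 to 12.2% ± 0.98 and Gabarapl2 from 3.51% ± 0.262 to 3.97% ± 0.16. For each share the 3 cKO hearts lay apart from the 3 Ctrl hearts (exact permutation p 0.1, the smallest possible). The shares are parts of the same sum, so a fall of its largest part, Map1lc3a, raises the others, and they are not separate results. The levels of Gabarap, Gabarapl1 and Gabarapl2 did not pass the threshold in all 6 hearts. The ratio of Map1lc3a to Map1lc3b overlapped between groups, at 14.1 to 14.6 in Ctrl and 13.3 to 15.4 in cKO.

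**Figure D2:**
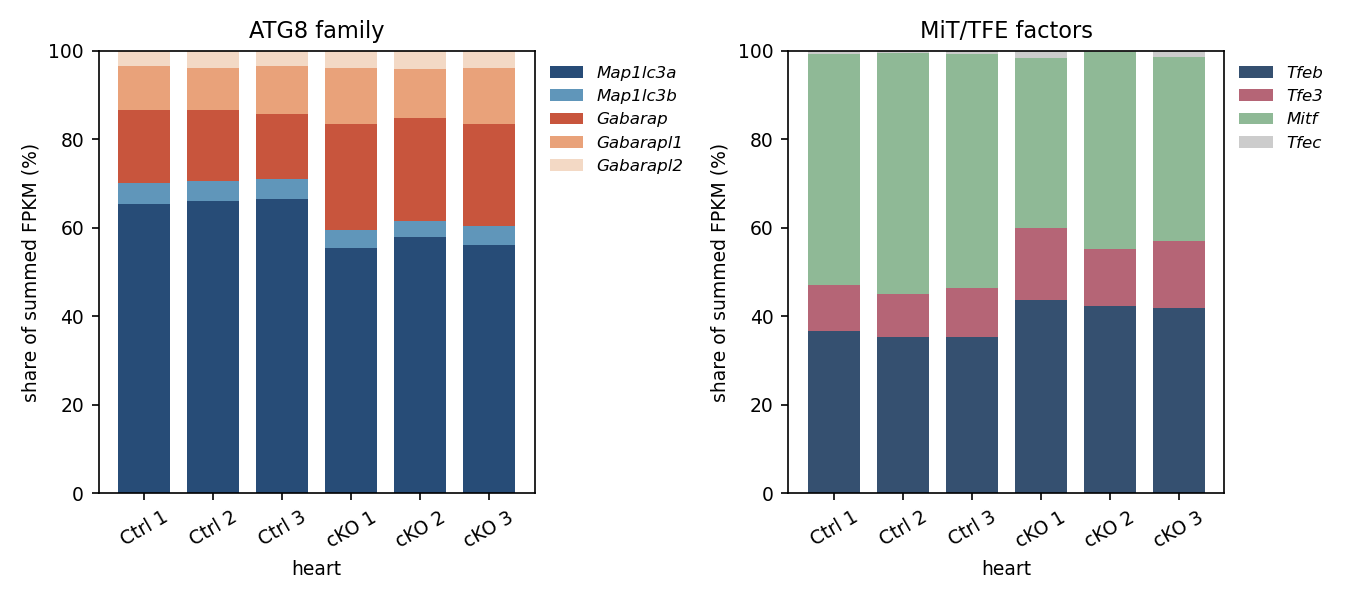
Share of the summed FPKM, in percent, of each gene of the ATG8 family (left) and of the MiT/TFE transcription factors (right), 1 bar per heart. Map1lc3a takes 65.4% to 66.4% of the ATG8 sum in Ctrl and 55.4% to 57.8% in cKO, and Tfeb takes 35.2% to 36.7% of the MiT/TFE sum in Ctrl and 41.8% to 43.6% in cKO.

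ULK1 is the protein kinase that integrates signals from nutrients and energy and starts autophagy. Ulk1 (ENSMUSG00000029512, chromosome 5, 110784488 to 110810097, minus strand, 28 exons) had the largest decrease of the 10 genes. It had 17.5, 20.2 and 22.1 FPKM in Ctrl, against 10.1, 8.3 and 11.9 FPKM in cKO. The highest cKO heart was well below the lowest Ctrl heart, and 50.8% of the mean was left (log2 fold change -0.92, SE 0.14, 95% interval -1.25 to -0.59, limma adjusted p 0.00405). The related kinase gene Ulk2 fell less, from 14.1 ± 0.377 to 11 ± 1.39 FPKM (limma adjusted p 0.039), and lost its call in 7 of 14 alternatives. Ulk1 provided 55.7% to 60.4% of the sum of both in Ctrl and 46.6% to 49.8% in cKO hearts. Rb1cc1, which encodes the scaffold FIP200 of the kinase complex, fell from 5.13 ± 0.359 to 3.83 ± 0.318 FPKM (limma adjusted p 0.0203, no longer past the threshold in 3 of 14 alternatives). Of the 5 genes of this complex, 3 fell and none rose, with a median log2 fold change of -0.33.

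BECN1 is a core subunit of the class III PI3-kinase complex, which makes the lipid that recruits the autophagy machinery. Becn1 (ENSMUSG00000035086, chromosome 11, 101285952 to 101302286, minus strand, 12 exons) had 7.03, 7.04 and 6.1 FPKM in Ctrl, against 9.01, 6.9 and 8.22 FPKM in cKO. Replicates 1 and 3 of cKO were above every Ctrl heart and cKO replicate 2 was inside the Ctrl range. The log2 fold change of 0.22 (SE 0.107, 95% interval -0.031 to 0.48) did not pass (limma adjusted p 0.152). Among the 8 genes of the complex and its regulators, 2 rose, none fell and the median log2 fold change was -0.0036. Rubcn, whose product Rubicon is an inhibitor of the complex in autophagosome maturation, rose 1.93-fold, from 5.5 ± 0.198 to 10.6 ± 1.44 FPKM (limma adjusted p 0.00232). Its exons share 171 of 7478 bases with Fyttd1, and the part of shared reads was not tested. Nrbf2, a subunit that promotes the activity of the complex, rose from 4.15 ± 0.314 to 6.29 ± 1.49 FPKM (limma adjusted p 0.0391) and lost its call in 4 of 14 alternatives.

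ATG7 is the activating enzyme of both conjugation systems of autophagy, and ATG5 is part of the complex that finally attaches ATG8 proteins to lipid. Atg5 (ENSMUSG00000038160, chromosome 10, 44268358 to 44364291, plus strand, 8 exons) had 6.31, 7.67 and 6.01 FPKM in Ctrl, against 6.96, 6.21 and 6.74 FPKM in cKO. All cKO hearts lay inside the Ctrl range, and the 95% interval of the log2 fold change was -0.23 to 0.23. Atg7 (ENSMUSG00000030314, chromosome 6, 114643097 to 114860614, plus strand, 20 exons) had 2.66, 2.9 and 2.62 FPKM in Ctrl, against 3.43, 2.8 and 3.53 FPKM in cKO. As for Becn1, cKO replicate 2 alone lay within the Ctrl range. The log2 fold change was 0.19 (SE 0.091, 95% interval -0.03 to 0.4, limma adjusted p 0.159). Of the 11 conjugation genes, 2 rose, 1 fell and 8 did not pass. Atg3, the enzyme that hands ATG8 proteins to lipid, rose from 10 ± 0.883 to 12.7 ± 0.433 FPKM (limma adjusted p 0.0249), and Atg4b, a protease that trims ATG8 proteins, from 2.95 ± 0.25 to 4.02 ± 0.287 FPKM (limma adjusted p 0.0197). Atg10, the enzyme that couples ATG12 to ATG5, fell from 10.7 ± 0.61 to 7.96 ± 0.818 FPKM (limma adjusted p 0.0169). Atg3 and Atg4b each lost the call in 3 of 14 alternatives and Atg10 in 2.

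The heart of cKO replicate 2 had the lowest value of the cKO group for 9 of the 10 genes, where it was the lowest for 40.4% of all genes tested. Tfeb was the exception. Without this heart Becn1 rose with a log2 fold change of 0.32 (SE 0.092, limma adjusted p 0.0451) and Atg7 with 0.27 (SE 0.077, limma adjusted p 0.0463), so that 3 genes rose instead of 1, beside 15.3% of all genes higher and 30.8% called in that fit. Sqstm1 was then at 0.91, Map1lc3a at -0.53, Map1lc3b at -0.42 and Ulk1 at -0.80, each past the threshold (limma adjusted p between 0.00287 and 0.00852). The remaining 4 genes stayed above it.

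**Figure D3:**
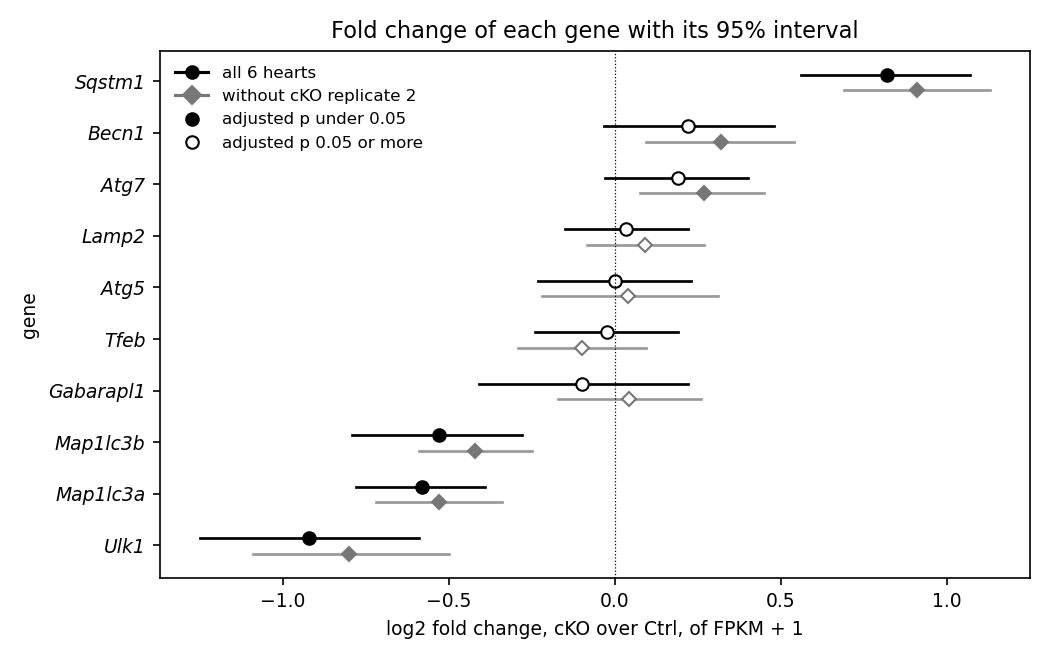
Log2 fold change of FPKM + 1 in cKO over Ctrl (x axis) for each gene, with its 95% interval, in all 6 hearts (black circles) and without cKO replicate 2 (grey diamonds), and with filled symbols where the adjusted p is under 0.05. Becn1 and Atg7 pass only without cKO replicate 2, at 0.32 and 0.27, while Sqstm1, Ulk1, Map1lc3a and Map1lc3b pass in both fits.

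TFEB is a basic helix-loop-helix factor of the MiT/TFE family that enters the nucleus when nutrients or lysosomal function fail; its activity is set largely by phosphorylation and location, which RNA levels do not show. Tfeb (ENSMUSG00000023990, chromosome 17, 47737030 to 47792419, plus strand, 9 exons) had 6.41, 6.62 and 5.9 FPKM in Ctrl, against 5.96, 6.98 and 5.67 FPKM in cKO. The ranges overlapped, with cKO replicate 2 the highest heart of all and cKO replicate 3 the lowest. The log2 fold change was -0.024 (SE 0.091, 95% interval -0.24 to 0.19, limma adjusted p 0.86), and its sign changed with scaling (0.052 without mtDNA-encoded genes). Of its relatives, Tfe3 was at 1.83 ± 0.00972 in Ctrl and 2.13 ± 0.0948 FPKM in cKO (limma adjusted p 0.149). Mitf fell from 9.39 ± 0.754 to 6.08 ± 1.12 FPKM (limma adjusted p 0.0142, and 0.0525 without Ctrl replicate 2). Tfeb therefore made up 35.8% ± 0.819 of the summed MiT/TFE level in Ctrl and 42.6% ± 0.952 in cKO. Of the 12 tested genes for these factors and their control at the lysosome, 2 rose and 3 fell (median log2 fold change -0.029). Rragd, a GTPase that recruits such factors to the lysosome, fell from 31.1 ± 2.32 to 21.7 ± 2.76 FPKM (limma adjusted p 0.0138, and 0.052 without Ctrl replicate 3), while its paralog Rragc rose from 10.8 ± 0.589 to 14.8 ± 1.75 FPKM (limma adjusted p 0.0181, and 0.0651 without Ctrl replicate 3). Rraga rose from 25.7 ± 1.34 to 31.3 ± 1.82 FPKM (limma adjusted p 0.0325) and lost its call in 5 of 14 alternatives.

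MiT/TFE factors bind the letters CACGTG, best with GT before and AC after them, so the 250 bases before annotated starts were searched on both strands for CACGTG and for TGATGNAA and TGACNNNGC, letters bound by the stress factors ATF4 and NRF2, and for the GC box GGGCGG. The RefSeq table (GRCm38.p6) held 10 windows for 8 of the 10 genes and none for Map1lc3a and Becn1. CACGTG was found in the windows of Atg5 and Atg7, neither of which passed the threshold, and for 6.86% of all 27025 genes in that table. It was not in those of Sqstm1 or Ulk1, the genes with the largest changes, and the longer form was in none of the 10 windows (0.27% of all genes). TGATGNAA (3.91% of all genes) and TGACNNNGC (11.5%) were in none of the 10 either. GC boxes were found for 7 of the 8 genes and for 35.4% of all genes, with 3 before Sqstm1 and 5 before Ulk1. The shares of all genes cover that table whether or not a gene passed the expression filter, which all 8 did, so the sets are unlike. The motifs found are matches of letters in short windows and no measure of binding. The 2 genes with the largest changes are shown first, up to the first annotated exon, and then a stretch around each CACGTG, all 5′ to 3′ on the strand of the gene with GC boxes and CACGTG in capitals.
Sqstm1, chr11:50210828-50211070, minus strand: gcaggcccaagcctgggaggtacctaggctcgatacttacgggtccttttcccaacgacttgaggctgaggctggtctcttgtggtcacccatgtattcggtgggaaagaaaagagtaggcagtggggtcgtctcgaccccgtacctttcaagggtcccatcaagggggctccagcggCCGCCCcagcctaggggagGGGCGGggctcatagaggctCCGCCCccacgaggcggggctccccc
Ulk1, chr5:110810098-110810331, minus strand: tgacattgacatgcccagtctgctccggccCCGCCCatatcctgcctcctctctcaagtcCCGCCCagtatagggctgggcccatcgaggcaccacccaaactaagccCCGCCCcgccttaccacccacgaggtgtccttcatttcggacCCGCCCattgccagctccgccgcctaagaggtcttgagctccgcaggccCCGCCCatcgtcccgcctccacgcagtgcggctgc
Atg5, chr10:44268279-44268338, plus strand: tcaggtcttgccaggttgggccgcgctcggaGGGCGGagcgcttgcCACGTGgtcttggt
Atg7, chr6:114670937-114670996, plus strand: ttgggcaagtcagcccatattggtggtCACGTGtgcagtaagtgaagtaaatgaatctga
The Atg5 match began 14 bases before the annotated start, and the Atg7 match 132 bases before a RefSeq start that lies inside the gene as listed in the table.

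LAMP2 lines the lysosomal membrane and is needed for autophagosomes to fuse with lysosomes. Lamp2 (ENSMUSG00000016534, chromosome X, 38401357 to 38456454, minus strand, 9 exons) had 20.1, 20.5 and 21.2 FPKM in Ctrl, against 21.3, 19.4 and 22.8 FPKM in cKO. The groups overlapped, and the log2 fold change of 0.033 had the smallest SE of the 10 genes (0.079) and a 95% interval that included 0 (-0.15 to 0.22, limma adjusted p 0.776). The table holds 1 value per gene, so the LAMP2 isoforms, which arise by alternative splicing of the last exon, were not distinguished. Lamp1, the other major protein of this membrane, was at 133 ± 3.99 in Ctrl and 132 ± 7.32 FPKM in cKO (limma adjusted p 0.919), with exonic bases in common with Grtp1, and Lamp2 made up 13.1% to 14.9% of the sum of both in all hearts. Of 10 genes for lysosomal membrane proteins, 1 rose and 2 fell, with a median log2 fold change of 0.014. Cd63, a tetraspanin of late endosomes and lysosomes, rose 1.92-fold, from 40.8 ± 2.94 to 78.4 ± 10.3 FPKM (limma adjusted p 0.00212). Npc1, a lysosomal cholesterol exporter, fell from 5.84 ± 0.904 to 3.41 ± 0.682 FPKM (limma adjusted p 0.016, and 0.0517 without Ctrl replicate 3). Exons of Npc1 share 511 of 11317 annotated bases with Rmc1, and here too the part of shared reads was not tested. Scarb2, the receptor that carries glucocerebrosidase to the lysosome, fell from 43.1 ± 2.17 to 34.8 ± 2.19 FPKM (limma adjusted p 0.0264) and lost its call in 5 of 14 alternatives, with an adjusted p of 0.0544 without cKO replicate 2.

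Against the wider pathway the 10 genes were not unusual in the number of calls. Of 122 genes in 11 lists of autophagy and lysosomal function, 121 were tested, and 20 rose and 21 fell, or 33.9% of those tested beside 33.3% of all genes. By list the share called ran from 11.1% of the 9 genes that supply membrane to 60% of the 5 genes of the ULK complex. The median log2 fold change over the 121 genes was 0.036. These counts changed when a heart was left out. The fewest, 10 higher and 11 lower, came without Ctrl replicate 3, and the most, 25 and 19, without cKO replicate 2. In between, 12 rose without Ctrl replicate 1, 13 fell without Ctrl replicate 2 and 13 rose without cKO replicate 1. Calls among all genes were also fewer in these fits, at 1396 to 1977 higher and 1423 to 2011 lower. With all hearts they were 2110 and 2205. The part that the smaller number of hearts has in these changes was not tested. Ulk1 had the largest decrease of all 121 genes on the log2(FPKM + 1) scale.

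**Figure D4:**
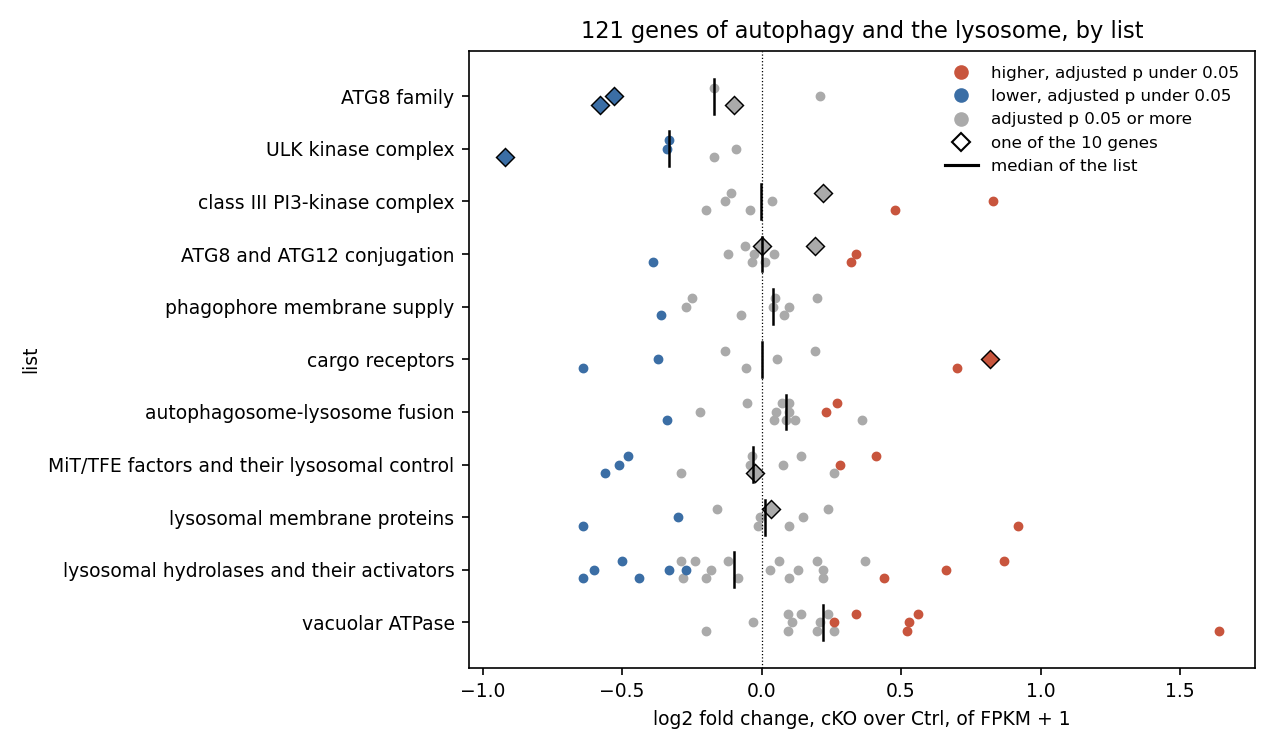
Log2 fold change of FPKM + 1 in cKO over Ctrl (x axis) of the 121 tested genes, by list, with calls in red (higher) and blue (lower), the 10 genes described here as diamonds and the list median as a bar. Ulk1 lies farthest to the left at -0.92, and Sqstm1 is at 0.82 among cargo receptors whose median is 0.00031.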

How the data were processed

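RNA-seq of 3 Ctrl and 3 cKO hearts was analysed, with group and replicate number taken from sample titles and columns matched to samples by name. Total RNA was extracted with TRIzol and poly-A selected. Per the submitters' processing notes and the study's methods, the authors aligned paired-end reads with HISAT2 2.0.5, counted reads per gene with featureCounts 1.5.0-p3 and computed the deposited FPKM from the read count and gene length. Use of strand and treatment of multiply aligned reads are not given in the sources used here. The gene length, another deposited value, equalled the joint exon length of each of the 10 genes in GENCODE mouse release 21. The notes name mm9, but of 54409 gene identifiers shared with that release (GRCm38), 53499 had identical start and end, including all 10 genes, so coordinates are given as GRCm38.

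In each library, multiplying FPKM by length gave whole multiples of 1 step for 100% of values (tolerance 0.01 of a read), and so the reads behind each value. The library size implied by the step was 0.98, 0.913 and 0.972 of the reads in genes in Ctrl, and 1.06 in each cKO library. The deposited FPKM thus carry a scaling beyond the read total that differed between groups, and its source is not given. Becn1, Atg7 and Gabarap did not pass with median-of-ratios scaling or by voom on the recovered reads in all 6 hearts. Genes averaging 0.5 FPKM or more were tested on the log2(FPKM + 1) scale, on which changes of low genes are understated, with limma 3.58.1 in R 4.3.3 (intensity trend, no covariates, two-sided, Benjamini-Hochberg adjustment over all genes, threshold 0.05). Intervals are 95% intervals from that fit, and errors given as ± are SD over 3 hearts. The methods describe the controls as littermates without tying hearts to litters, and p-values measure the spread between these animals. The fit was tested on 5 simulated data sets with 200 changed genes drawn in each. On average it recovered 91.4% of the changed genes, and 85% of those changed 2-fold. Of its calls 6.36% were false on average. In the real data 33.3% of genes were called, so the simulated setting is unlike these data.

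The 10 genes, the pathway lists and the marker lists were chosen with earlier results of these data known, and the promoter motifs were chosen after the values were seen. Named are the 10 genes, Mrps5, 6 close relatives (Gabarap, Gabarapl2, Ulk2, Tfe3, Mitf and Lamp1) and, in each list, up to 2 genes with the largest called increase and up to 2 with the largest called decrease; markers, overlapping genes and the sex-linked genes are named where a result touches them. The alternatives were another pseudocount (0.1), a higher filter (1 FPKM) or none, scaling by median of ratios or without mtDNA-encoded genes, no intensity trend, voom on the recovered reads, the replicate number as a block, and leaving out each heart.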

Additional observations from a re-analysis of the deposited data

How the results depend on the processing

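Sqstm1, Map1lc3a, Map1lc3b and Ulk1 kept direction and call in each of the 14 alternatives, with log2 fold changes of 0.74 to 0.91, -0.62 to -0.50, -0.61 to -0.42 and -1.03 to -0.80. Of 140 comparisons over the 10 genes, 128 kept direction and side of the threshold, 2 gained a call (Becn1 and Atg7 without cKO replicate 2) and 10 changed sign, all at values near 0 in genes that were not called. Over the fits that each left out a heart, Atg5 ran from -0.061 to 0.0919, Gabarapl1 from -0.174 to 0.0423, Tfeb from -0.10 to 0.0295, Lamp2 from -0.0189 to 0.0916 and Lamp1 from -0.0554 to 0.0195. Tfeb was also at 0.0523 with scaling without mtDNA-encoded genes and at 0.00116 by voom, and Lamp1 at 0.0153 with median-of-ratios scaling, 0.0767 without mtDNA-encoded genes and 0.0159 by voom. The cause was not tested. Among the 32 other genes named, 54 of 448 comparisons lost a call and 1, Gabarap without cKO replicate 2, gained one. Leaving out a replicate gave 1 to 3 of the 10 genes higher and 3 lower in each fit, 10 to 25 pathway genes higher and 11 to 19 lower, and 1396 to 1977 of all genes higher and 1423 to 2011 lower; both lowest pathway counts came without Ctrl replicate 3. Scaling without mtDNA-encoded genes gave 26 pathway genes higher and 15 lower, and 2649 and 1621 of all genes. With a replicate block the 10 genes gave 1 higher and 3 lower, the pathway lists 17 and 21 and all genes 1874 and 1982; deviations of same-numbered hearts correlated at -0.06, 0.17 and -0.01, so the numbers were not taken as pairs. The block took the call from Vamp8 (limma adjusted p 0.0533) and Ykt6 (0.0768) and from no other named gene. Genes near 1 FPKM are limited by depth and by the pseudocount.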

Other observations

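Genes for the later steps of the pathway, acidification and digestion in the lysosome, are given here as values. Of all genes tested 33.3% were called, 16.3% higher and 17% lower. The share called was 37.5% for the vacuolar ATPase, 37.5% for lysosomal enzymes and their activators, and 23.1% for fusion genes. Of 16 genes for the vacuolar ATPase, the proton pump that acidifies the lysosome, 6 rose, none fell and 10 did not pass the threshold, with a median log2 fold change of 0.22. Atp6v1h, a regulatory subunit of the part of the pump that splits ATP, had 2.5, 2.45 and 2.51 FPKM in Ctrl, against 11.2, 9.07 and 9.4 FPKM in cKO. Its mean was 3.97-fold higher (log2 fold change 1.64, SE 0.09, limma adjusted p 0.000184), the largest change of the 121 pathway genes tested, while the log2 fold change of every other subunit was 0.56 or less. Atp6v0d1, a subunit of the membrane part, rose from 17.1 ± 1.09 to 25.9 ± 3.9 FPKM (limma adjusted p 0.0115).

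Genes for lysosomal enzymes and their activators were split, with 3 higher, 6 lower and 15 of 24 not past the threshold (median log2 fold change -0.10). Among the cathepsins, which are lysosomal proteases, Ctsl rose from 36.2 ± 4.49 to 68.2 ± 18.4 FPKM (limma adjusted p 0.0157, and 0.0551 without Ctrl replicate 2) and Ctsz from 29.7 ± 2.27 to 47.6 ± 6.07 FPKM (limma adjusted p 0.00571). Ctsf fell from 25.5 ± 2.1 to 16.1 ± 2.56 FPKM (limma adjusted p 0.00867) and Ctsh from 12.1 ± 0.972 to 7.65 ± 0.679 FPKM (limma adjusted p 0.00419). Macrophages express several cathepsins as well. Of 7 macrophage and leukocyte markers tested, none rose and 1 fell (Csf1r, to 61.8% of the Ctrl mean, limma adjusted p 0.0196), their sums overlapped (305 to 417 FPKM in Ctrl, 242 to 359 in cKO), and their part in these values was not tested. Of 13 genes for fusion of autophagosomes with lysosomes, 2 rose and 1 fell: the SNARE genes Vamp8 (limma adjusted p 0.0255) and Ykt6 (limma adjusted p 0.0393) were higher by 0.27 and 0.23 on the log2 scale, and Stx17 had a log2 fold change of -0.34 (limma adjusted p 0.023). Vamp8 and Stx17 each lost the call in 4 and Ykt6 in 7 of 14 alternatives (adjusted p 0.0658 without cKO replicate 2). Of 9 genes that supply membrane to the growing autophagosome, Atg2a, a lipid transfer protein, was the only one called, at 5.79 ± 0.137 in Ctrl and 4.29 ± 0.271 FPKM in cKO (limma adjusted p 0.0096).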
